A study of Mus musculus with 4 samples.

Results

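The genes described here form the interferon response and nucleic acid sensing system, taken as a named list of 39 gene symbols. Of these, 38 were matched by symbol in the deposited table and all 38 were tested, among 11433 genes tested and 12861 lines with a gene ID. Oas1a, which encodes an oligoadenylate synthetase, was not analysed here. The rule for the list names symbols by function and uses no measured value. The cells were Neuro-2A, a line grown from a mouse neuroblastoma, with the strain labelled Swiss Albino. Cells received either pRK5-Zac1, a plasmid expressing the zinc finger factor Zac1, which the gene Plagl1 encodes, or pRK5-CAT, the same vector with bacterial chloramphenicol acetyltransferase, as a negative control. Both groups were thus transfected with plasmid DNA by Lipofectamine, and RNA was taken 16 h later in 2 transfections per group. The libraries carry the numbers 9 and 12 in each group. No untransfected cells were compared, so the effect of transfection on the level of any gene cannot be told apart from its level in resting cells. Expression was transient and driven by a plasmid, in 1 cell line. Cells are measured in bulk, where fewer cells with a transcript and less of it per cell cannot be told apart.

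The system works as a relay. Foreign RNA in the cytosol is bound by the helicases RIG-I (Ddx58) and MDA5 (Ifih1), which signal through Mavs on mitochondria to the kinase Tbk1, and foreign DNA reaches the same kinase through the cGAS and STING proteins. Tbk1 activates the factors Irf3 and Irf7, which switch on type I interferon genes. Secreted interferon binds its receptor, made of Ifnar1 and Ifnar2, and a complex that contains Stat2 and Irf9 then binds interferon-stimulated response elements in the promoters of a large set of antiviral genes. Plasmid transfection can itself engage DNA sensing, and MHC class I presentation is generally described as sparse in neuronal cells.

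Digital gene expression does not read a whole transcript: it counts a short tag at the DpnII site, GATC, closest to the poly(A) tail, so a tag count is not scaled by transcript length. The tags that such digestion predicts were read from the GENCODE transcripts of GRCm38 as GATC plus the following bases, 20 in all, in the longest coding transcript of each gene. They are shown because a count of this assay stands for such a tag. The capitals mark the DpnII site, and which tags the authors assigned to a gene is not given in the sources used here. A tag was predicted for 39 of the listed genes, in the 3' UTR for 27 and in coding sequence for 12, and for 35 the same tag was found in no other annotated gene.
Ifit1: GATCtctaagtgtaagtcaa
Ifit2: GATCtggaagggcctaaatg
Ifit3: GATCacattttttttctctg
Mx1: GATCctgctcctgtcttttc
Trim25: GATCttctctacataggact
Isg15: GATCaagcatttgcgcctga
Ifnar1: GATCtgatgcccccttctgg
Ifitm2: GATCttcagcatccttatgg
Ifitm3: GATCggaagatggtgggtga
B2m: GATCatatgccaaaccctct

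In GRCm38 the Ifit tags lie in 3' UTRs on the plus strand, at chr19:34649973-34649992 for Ifit1, chr19:34576113-34576132 for Ifit2 and chr19:34588687-34588706 for Ifit3. That of Mx1 lies in the 3' UTR at chr16:97447917-97447936 on the minus strand, that of Trim25 in the 3' UTR at chr11:89019762-89019781 on the plus strand, and that of B2m in the 3' UTR at chr2:122152879-122152898 on the plus strand. Those of Isg15 (chr4:156199613-156199632), Ifitm2 (chr7:140955071-140955090) and Ifitm3 (chr7:141009864-141009883) lie in coding sequence on the minus strand, and that of Ifnar1 at chr16:91507350-91507369 in the 3' UTR on the plus strand. The predicted tag of Ifitm2 is also found in 5 other annotated genes, and those of Isg15, Ifnar1 and Oas1a each in 1 other, so the values of Ifitm2, Isg15 and Ifnar1 are uncertain in that respect. The Ifit and Mx1 tags shown, although these genes have close relatives, are found in no other gene.

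The promoters of 4 of these genes are shown because the response element through which interferon acts can be read in them. The motif searched was GAAA, any 2 bases and GAAA again, a common form of the interferon-stimulated response element, on both strands of the RefSeq promoters of GRCm38.p6, from 250 bases before the annotated start to 50 after it. Of 32 listed genes with a promoter in that table, 14 held a match (43.8%) and 6 held at least 2 matches, which may overlap, against 1079 of 27025 genes of the table (3.99%). A match is a description of the letters and not a bound site. The stretch from -150 to -41 is printed 5' to 3' on the strand of the gene, with bases inside a match in capitals and the annotated start counted as 0. It lies at chr19:34640739-34640848 (plus strand) for Ifit1, chr4:156200859-156200968 (minus) for Isg15, chr8:71537513-71537622 (minus) for Bst2 and chr12:26456493-26456602 (minus) for Rsad2.
Ifit1: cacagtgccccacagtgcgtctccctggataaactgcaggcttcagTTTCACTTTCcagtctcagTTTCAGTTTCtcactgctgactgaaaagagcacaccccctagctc
Isg15: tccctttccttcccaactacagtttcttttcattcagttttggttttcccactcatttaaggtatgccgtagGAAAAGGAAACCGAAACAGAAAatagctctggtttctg
Bst2: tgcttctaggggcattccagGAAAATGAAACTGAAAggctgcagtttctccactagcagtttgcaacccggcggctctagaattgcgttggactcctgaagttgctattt
Rsad2: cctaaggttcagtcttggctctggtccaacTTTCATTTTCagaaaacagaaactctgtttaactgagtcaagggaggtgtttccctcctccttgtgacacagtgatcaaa

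The transfected gene itself followed the labels. Plagl1 was at a normalised count of 0 in both CAT libraries, at 3397 in Zac1 replicate 9 and at 1475 in Zac1 replicate 12. Counts recovered from the deposited values totalled 11578920 to 13840674 per library. Of 14 neuroblast and neuronal markers found in the table, Hand2, Gata3 and Stmn2 among them, the summed normalised count was 56339.9 to 57945 in the CAT and 52920.3 to 54777 in the Zac1 libraries, and Map2, Nefl and Nefm were not analysed here. Of 12 macrophage and microglia markers 3 were in the table (Ptprc, Itgam and Lyz2 were not analysed here), with a sum of 46.8 to 55.3 in the CAT and 49.4 to 59.3 in the Zac1 libraries. Of 8 fibroblast markers 3 were in the table, with sums of 15.0 to 16.6 and 17.4 to 35.6, and of 6 endothelial markers 4, with sums of 37.0 to 74.4 and 50.4 to 57.3. The part of these few counts in the results was not tested. The Zac1 libraries differed more from each other than the CAT libraries did. Over all genes tested the median absolute log2 difference between replicates was 0.34 in the Zac1 group and 0.20 in the CAT group, and over the 38 genes it was 0.40 and 0.19.

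None of the 38 genes passed the test as higher or lower after Zac1 transfection. With limma on log2(value + 1) and Benjamini-Hochberg adjustment over all genes tested, 0 of 38 passed as higher, where 0.962% of all genes did, and 0 passed as lower, where 0% of all genes did. The smallest adjusted p among them was 0.462. At an unadjusted p under 0.05 limma gave 1 of 38 (Ifit1), or 2.63%. Of all genes 6.19% (708) had such a p and 5.23% were higher with one. Recovered counts were tested by edgeR (quasi-likelihood) and by DESeq2. Over all genes, 710 by edgeR and 575 by DESeq2 had such a p. After adjustment, edgeR called 150 of all genes higher and DESeq2 143, and each called 0 lower. Of the 38 genes, each of these tests likewise called 0 after adjustment and 1 before it. The unadjusted count also turned on single libraries, at 5 of 38 without Zac1 replicate 12 (21.2% of all genes), 0 without CAT replicate 9 (4.12%) and 1 without either of the others. The background of adjusted calls rests on both Zac1 libraries: limma called 110 genes higher in all, and 1 when either Zac1 replicate 9 or Zac1 replicate 12 was left out; it called 0 lower in all and 5 without CAT replicate 9. The 38 log2 fold changes ran from -0.63 for Mavs to 0.91 for Ifit2, with 19 above 0 (50%, against 48.4% of all genes) and 19 below it. Their median was 0.0022, beside -0.01 over all genes, and their median size without sign was 0.21, beside 0.19.

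How large a change the libraries leave possible is given by the intervals. For 28 of the 38 genes (73.7%) the unadjusted 95% interval of the log2 fold change lay within -1 and 1, which is a change of less than 2-fold either way, as it did for 74.3% of all genes. The other 10 were Ifih1, Mavs, Usp18, Ifit1, Ifit2, Ifit3, Mx1, Mx2, Parp14 and Psmb9, of which all but Ifit1 had a mean normalised count below 100. For these the libraries do not bound the change to within 2-fold.

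**Figure D1:**
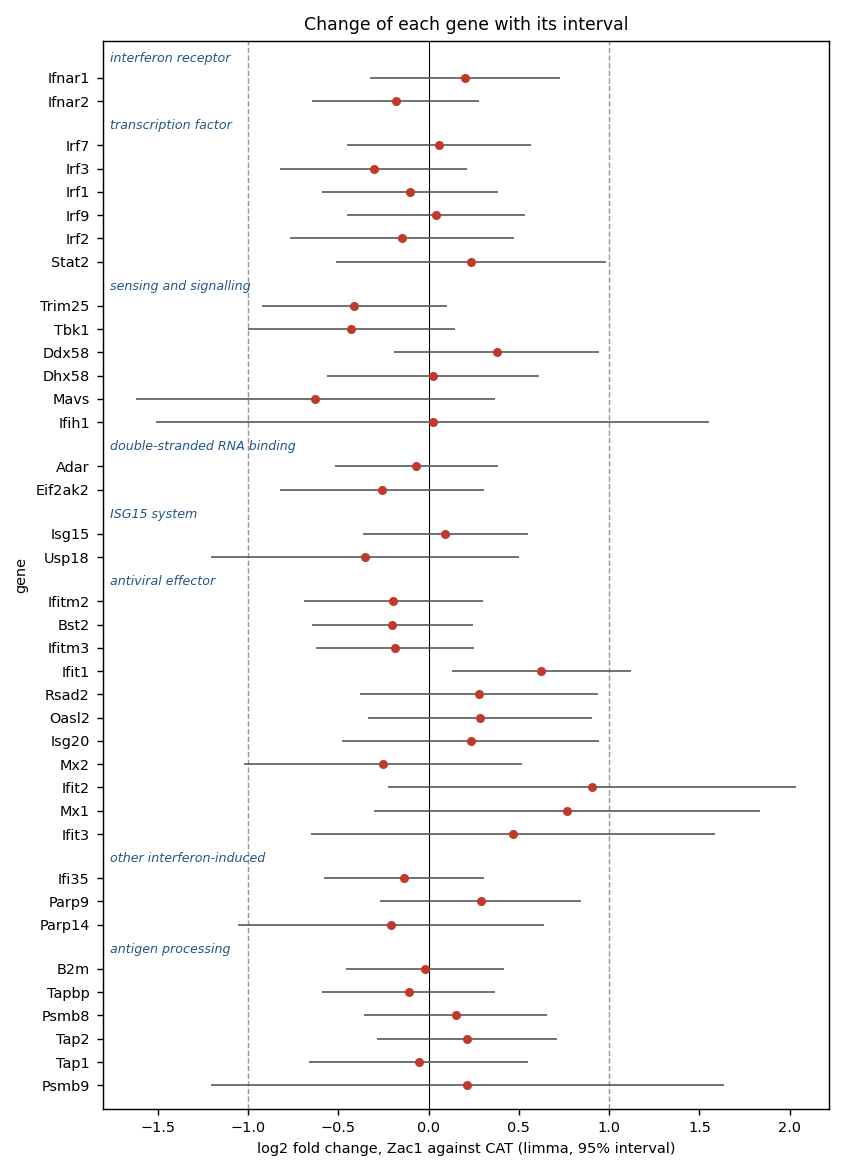
Log2 fold change of each gene, Zac1 against CAT, as points with the limma 95% interval as bars; genes are grouped by role and the dashed lines mark -1 and 1 on the log2 scale. Points lie from -0.63 to 0.91, and the bars of 28 genes stay between the dashed lines.

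The wider replicate difference exceeded the group difference for most of the 38 genes, at a share near that of all genes tested. In 31 of 38 (81.6%) the group difference was smaller than the wider of the 2 replicate differences of the same gene, beside 78.5% of all genes. Both Zac1 libraries lay above both CAT libraries for 3 genes, Ifit1, Ifit3 and Mx1 (7.89%, against 17.2% of all genes), and below both for 7, namely Ifnar2, Mavs, Trim25, Usp18, Bst2, Ifitm3 and Ifi35 (18.4%, against 16.7%). The first share was below that of all genes tested and the second close to it. Both libraries numbered 9 lay above both numbered 12 for 7 genes (18.4%, against 16.7%) and below them for 6 (15.8%, against 18.4%), so separation by number was no rarer than separation by plasmid.

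**Figure D2:**
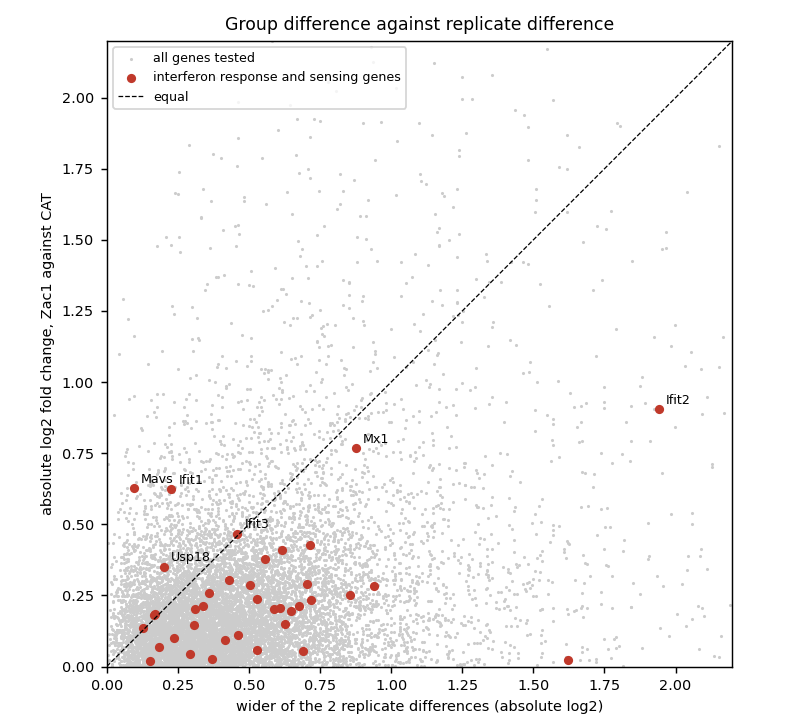
Absolute log2 fold change of each gene between groups (vertical) against the wider of its 2 replicate differences on the log2 scale (horizontal), for all genes tested (grey) and the 38 interferon response and sensing genes (red); the dashed line marks equal values, and genes beyond 2.2 on either axis are not drawn. Of the 38 genes 31 lie below the line, and Mavs and Ifit1 stand farthest above it.

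Neither of the 2 subunits of the type I interferon receptor passed. Ifnar1 (gene ID 15975) had a normalised count of 2358 in CAT replicate 9, 1568 in CAT replicate 12, 2660.4 in Zac1 replicate 9 and 1836 in Zac1 replicate 12. It was high in both libraries numbered 9 and low in both numbered 12, and the groups overlapped (1963 ± 558 and 2248 ± 583, SD, n = 2; 0.20 ± 0.25 SE in log2 fold change, limma adjusted p = 0.983). Ifnar2 (gene ID 15976) was at 674 and 756 in the CAT libraries and at 659 and 601 in the Zac1 libraries, replicate 9 first. Its groups did not overlap but lay close, and its log2 fold change of -0.18 ± 0.22 did not pass (limma adjusted p = 0.983).

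None of the 6 transcription factors of the pathway passed, and 3 were higher and 3 lower by sign. Irf3 (gene ID 54131), a factor that Tbk1 activates, was at 415 and 534 in the CAT libraries and at 328 and 443 in the Zac1 libraries, again replicate 9 first. The 2 libraries numbered 9 were both lower than the 2 numbered 12, and the log2 fold change was -0.30 ± 0.24 (SE; limma adjusted p = 0.983). Irf7 (gene ID 54123), an interferon-induced factor that amplifies the response, was at 424 and 432 in the CAT libraries and at 535 and 371 in the Zac1 libraries. Zac1 replicate 9 was above and Zac1 replicate 12 below both controls, which left a log2 fold change of 0.06 with an interval from -0.45 to 0.57. Irf1 (gene ID 16362), which also answers to interferon gamma, was at 394 and 452 in the CAT libraries and at 362 and 427 in the Zac1 libraries, with a log2 fold change of -0.10 and an interval from -0.59 to 0.39. Irf9, Irf2 and Stat2 also had overlapping groups and log2 fold changes of 0.04, -0.15 and 0.24. Irf9 and Stat2 are parts of the interferon-activated complex, and Irf2 is known as an antagonist of Irf1. The intervals of all 6 factors lay within -1 and 1.

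Among the sensors and their signalling partners, 3 genes were higher and 3 lower by sign, and none passed. Ddx58 (gene ID 230073), the sensor RIG-I, was at 225 in CAT replicate 9, 153 in CAT replicate 12, 272 in Zac1 replicate 9 and 214 in Zac1 replicate 12 (0.38 ± 0.27 SE in log2 fold change, limma adjusted p = 0.960). The groups overlapped, and in each group replicate 9 was the higher. Dhx58, the related helicase LGP2, which modulates both sensors, differed less, with a log2 fold change of 0.02 and an interval from -0.56 to 0.61. Ifih1, the sensor MDA5, was near the lower limit of the table at normalised counts of 12.2, 9.35, 5.77 and 19.8 in CAT replicates 9 and 12 and Zac1 replicates 9 and 12. At that depth its interval ran from -1.51 to 1.56, and no change short of several-fold was detectable.

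The adaptor and kinase steps had the lowest fold changes of the set. Mavs (gene ID 228607), the mitochondrial adaptor, was at 31.1 and 29.1 in the CAT libraries and at 18.4 and 19.8 in the Zac1 libraries. The replicates of each group lay close together and the groups did not overlap, yet at these low counts the log2 fold change of -0.63 ± 0.47 (SE) had an interval from -1.62 to 0.37 (limma adjusted p = 0.972). Trim25 (gene ID 217069), a ubiquitin ligase known for activating RIG-I, was at 733 and 768 in the CAT libraries and at 455 and 699 in the Zac1 libraries (751 ± 24.1 and 577 ± 172, SD, n = 2; -0.41 ± 0.24 SE in log2 fold change, limma adjusted p = 0.937). Zac1 replicate 9 was the low library, and the log2 fold change was -0.10 without it and -0.72 without Zac1 replicate 12. Tbk1 (gene ID 56480) was also low in Zac1 replicate 9, though its groups overlapped, at 312 and 273 in the CAT libraries and at 169 and 278 in the Zac1 libraries, with -0.43 ± 0.27 in all (limma adjusted p = 0.952), -0.07 without Zac1 replicate 9 and -0.79 without Zac1 replicate 12.

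Eif2ak2 and Adar, enzymes that bind double-stranded RNA, were a little lower by sign, and neither passed. Eif2ak2 (gene ID 19106), the kinase PKR that halts translation, was at 157 and 183 in the CAT libraries and at 160.3 and 125 in the Zac1 libraries (-0.26 ± 0.27 SE in log2 fold change, limma adjusted p = 0.983). Adar (gene ID 56417), an editing enzyme that keeps cellular RNA from being sensed, was at 1109 and 1259 in the CAT libraries and at 1202 and 1057 in the Zac1 libraries. Its groups overlapped, and its log2 fold change of -0.07 had an interval from -0.52 to 0.38.

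Isg15 and Usp18, the ubiquitin-like modifier and the protease that removes it, had overlapping groups in the first case and groups apart in the second. Isg15 (gene ID 100038882) was at 2986 and 2872 in the CAT libraries and at 3609 and 2702 in the Zac1 libraries. Zac1 replicate 9 was the highest of the 4 libraries and Zac1 replicate 12 the lowest, so the log2 fold change of 0.09 ± 0.22 (SE; limma adjusted p = 0.983) became 0.30 without Zac1 replicate 12 and -0.12 without Zac1 replicate 9. Usp18 (gene ID 24110), also a brake on receptor signalling, was at 43.2 and 37.5 in the CAT libraries and at 31.1 and 31.6 in the Zac1 libraries, which gave -0.35 ± 0.40 in log2 fold change (limma adjusted p = 0.983).

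**Figure D3:**
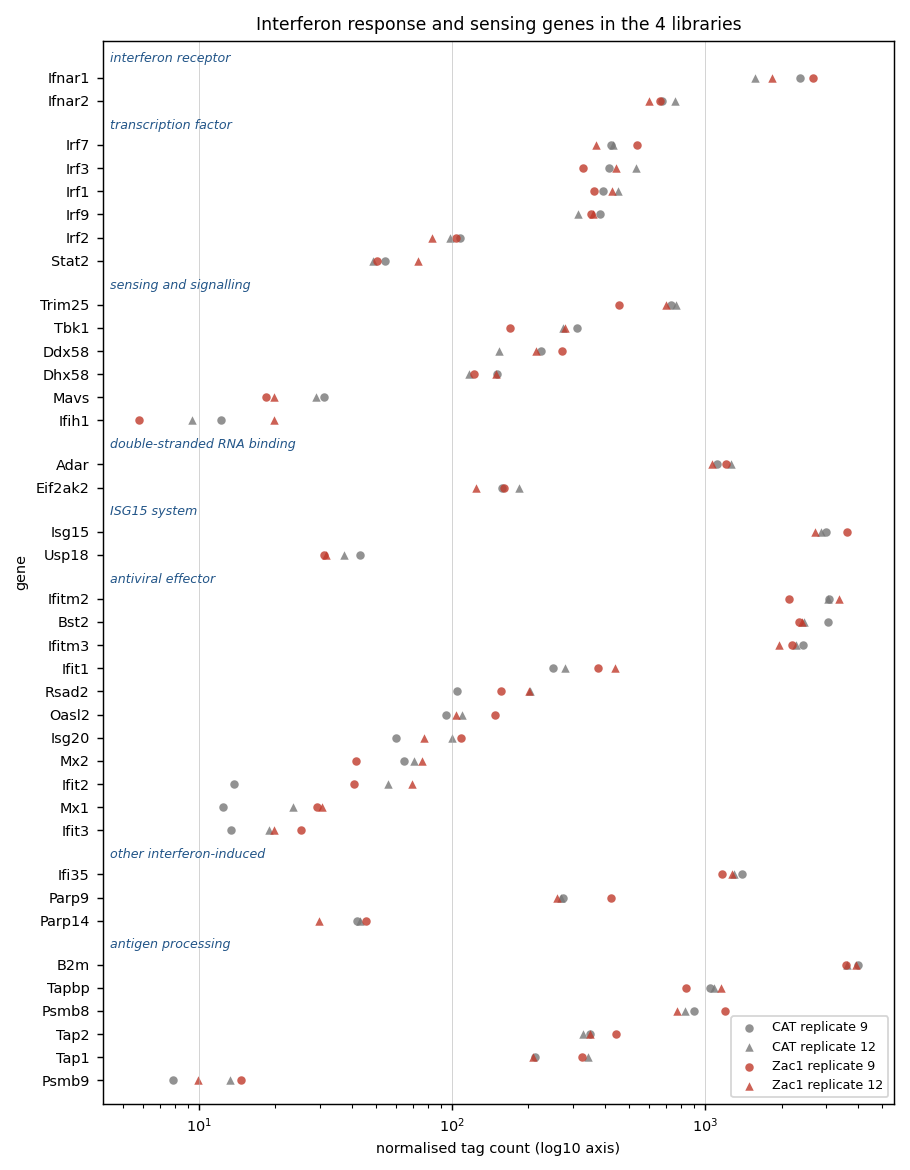
Normalised tag count (log10 axis) of each of the 38 genes in CAT replicate 9 and 12 (grey circles and triangles) and Zac1 replicate 9 and 12 (red circles and triangles), grouped by role. Control and Zac1 points are intermixed for most genes. Both Zac1 points lie above both control points for 3 genes, Ifit1 among them, and below both for 7, Mavs among them.

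The antiviral effectors held the genes with the highest fold changes, and 7 of the 11 tested were higher by sign, beside 48.4% of all genes, with a median log2 fold change of 0.28. That direction rests on CAT replicate 9: without it 4 of the 11 were higher and the median was -0.066, while without any other single library 7 or 8 were higher. Ifit1 (gene ID 15957), which binds foreign RNA lacking the cap modifications of host RNA, was at 249.7 and 279.7 in the CAT libraries and at 377 and 441 in the Zac1 libraries. Both Zac1 libraries were above both controls, and the means were 265 ± 21.2 and 409 ± 45.4 (SD, n = 2). The log2 fold change was 0.62 ± 0.23 (SE) with an unadjusted interval from 0.13 to 1.12, an unadjusted p of 0.0168 and an adjusted p of 0.462 (limma). With the groups apart, leaving out 1 library could not change the sign of Ifit1, and its log2 fold change then ran from 0.51 to 0.74.

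Ifit2 and Ifit3, which lie beside it on the chromosome, were measured on few counts, and neither passed. Ifit2 (gene ID 15958), a relative of Ifit1, was at 13.7 in CAT replicate 9, 55.7 in CAT replicate 12, 40.7 in Zac1 replicate 9 and 69.2 in Zac1 replicate 12. The CAT replicates differed more than the group means did, and the log2 fold change of 0.91 ± 0.53 (SE; limma adjusted p = 0.939) was 1.88 without CAT replicate 12 and -0.07 without CAT replicate 9. Ifit3 was at 13.4 and 18.8 in the CAT libraries and at 25.3 and 19.8 in the Zac1 libraries. Its groups barely separated, with a log2 fold change of 0.47 and an interval from -0.65 to 1.59.

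The Mx dynamin-like GTPases, which trap viral particles, had fold changes of opposite sign, and neither passed. Mx1 (gene ID 17857) was at 12.4 and 23.6 in the CAT libraries and at 29.1 and 30.7 in the Zac1 libraries (0.77 ± 0.50 SE in log2 fold change, limma adjusted p = 0.955), and without CAT replicate 9 it was at 0.33. Mx2 was at 64.4 and 70.4 in the CAT libraries and at 41.7 and 76.2 in the Zac1 libraries, so that the Zac1 libraries enclosed both controls (log2 fold change -0.25). Oasl2 (gene ID 23962), a member of the oligoadenylate synthetase family, was at 94.4 and 109 in the CAT libraries and at 148 and 104 in the Zac1 libraries (0.29 ± 0.29 in log2 fold change, limma adjusted p = 0.983). Rsad2, the radical-SAM enzyme viperin, and Isg20, an exonuclease, had overlapping groups and log2 fold changes of 0.28 and 0.23. Rsad2 was at 105 in CAT replicate 9 against 155 to 202 in the other 3 libraries.

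Bst2, Ifitm3 and Ifitm2 were all lower by sign, and none passed. Bst2 (gene ID 69550), tetherin, which holds budding virus at the cell surface, was at 3042 and 2456 in the CAT libraries and at 2349 and 2409 in the Zac1 libraries (-0.20 ± 0.21 SE in log2 fold change, limma adjusted p = 0.983). Ifitm3 (gene ID 66141), which blocks virus entry from endosomes, was at 2430.0 and 2289 in the CAT libraries and at 2199 and 1953 in the Zac1 libraries, with -0.19 ± 0.21. The groups of both genes did not overlap. Ifitm2 (gene ID 80876), a relative of Ifitm3, was at 3080.3 and 3061 in the CAT libraries and at 2145 and 3360.0 in the Zac1 libraries. The CAT replicates nearly coincided while the Zac1 replicates lay on either side of them, and the log2 fold change of -0.19 became -0.52 without Zac1 replicate 12 and 0.13 without Zac1 replicate 9.

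Of the 3 other interferon-induced genes, Ifi35 (gene ID 70110), a leucine-zipper protein, was at 1395 and 1292 in the CAT libraries and at 1167 and 1277 in the Zac1 libraries (-0.14 ± 0.21 SE in log2 fold change, limma adjusted p = 0.983). Parp9 (gene ID 80285), an ADP-ribosyltransferase family protein, was at 273 and 268 in the CAT libraries and at 423 and 259 in the Zac1 libraries. It was high only in Zac1 replicate 9, and its log2 fold change of 0.29 ± 0.26 became 0.64 without Zac1 replicate 12 and -0.06 without Zac1 replicate 9. Parp14 (gene ID 547253), of the same family, was at 42.2 and 43.2 in the CAT libraries and at 45.7 and 29.6 in the Zac1 libraries, with a log2 fold change of -0.21 and an interval from -1.05 to 0.64.

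The antigen-processing genes, which cut peptides, carry them into the endoplasmic reticulum and load them on MHC class I, were transcribed in both groups. B2m (gene ID 12010), the light chain of MHC class I, was at 4020.1 and 3616 in the CAT libraries and at 3585 and 3947 in the Zac1 libraries. The groups overlapped (3818 ± 285 and 3766 ± 256, SD, n = 2), and the log2 fold change of -0.02 (0.043 under equal-total scaling) had an interval from -0.45 to 0.42 (limma adjusted p = 0.997). Tapbp (gene ID 21356), the loading factor tapasin, was at 1042 and 1076 in the CAT libraries and at 835 and 1152 in the Zac1 libraries, with a log2 fold change of -0.11 ± 0.23.

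The immunoproteasome and transporter genes lie together in the MHC region of chromosome 17. Psmb8 (gene ID 16913), an inducible catalytic subunit, was at 898 and 827 in the CAT libraries and at 1189.9 and 769 in the Zac1 libraries (0.15 ± 0.24 SE in log2 fold change, limma adjusted p = 0.983). Its partner subunit Psmb9 was at 7.88 and 13.2 in the CAT libraries and at 14.6 and 9.88 in the Zac1 libraries, too few for an interval narrower than -1.20 to 1.63. Tap1, a subunit of the peptide transporter, was at 212 and 343 in the CAT libraries and at 324 and 208 in the Zac1 libraries, and Tap2, its partner, at 349 and 328 and at 442 and 349. Over all roles 18 of the 38 genes were higher in Zac1 replicate 9 than in Zac1 replicate 12 (47.4%, against 48.3% of all genes). In Zac1 replicate 9 Psmb8, Psmb9, Tap1 and Tap2 were all higher than in Zac1 replicate 12, while Tapbp and B2m were lower.

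**Figure D4:**
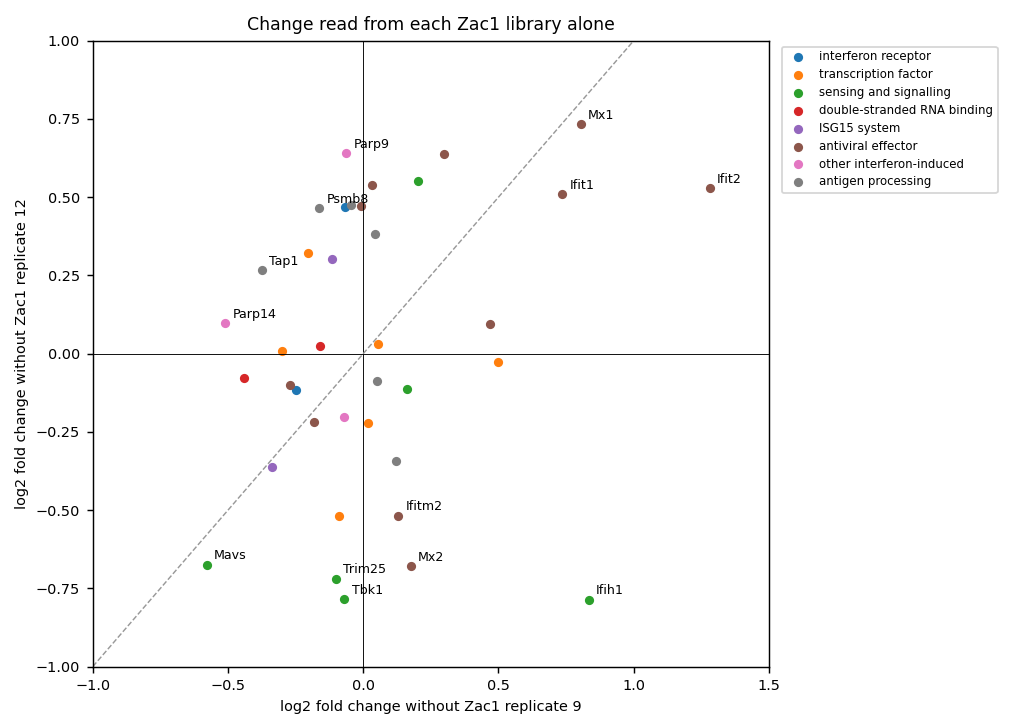
Log2 fold change of each of the 38 genes against the CAT libraries with only Zac1 replicate 12 kept (horizontal) and with only Zac1 replicate 9 kept (vertical), coloured by role; the dashed line marks equal values. Ifit1, Ifit2 and Mx1 lie well to the upper right and Mavs to the lower left, while Parp9, Psmb8 and Tap1 are higher only by Zac1 replicate 9. Both axes use the same CAT libraries, so dependence on a single CAT library is not shown. Without CAT replicate 9 the log2 fold changes were 0.54 for Ifit1, -0.066 for Ifit2, 0.33 for Mx1 and -0.58 for Mavs.

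Other genes of the pathway were read from 7 lists with 151 genes, of which 117 were in the table and 104 were tested. None of the 104 passed as higher or lower in limma (adjusted p over all genes). An unadjusted limma p under 0.05 was found for 8 (7.69%, against 6.19% of all genes). Of these, 4 were among 24 tested genes of sensor signalling (16.7%) and 2 among 13 of JAK-STAT signalling (15.4%). A further 2 were among 30 other interferon-induced genes (6.67%), and the remaining lists held 0. By sign 49 of the 104 were higher and 55 lower, with a median log2 fold change of -0.03. Of 13 genes for interferons and other interferon receptors 3 were tested, and the interferon genes Ifnb1 and Ifng were not analysed here. Il10rb and Ifngr1, receptor subunits for lambda and gamma interferon, had log2 fold changes of 0.17 and 0.01.

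In the list of sensor signalling 0 of 24 tested genes passed, with 11 higher and 13 lower by sign and a median log2 fold change of -0.04. Its 2 genes with the smallest p were both higher. Irf5 (gene ID 27056), an interferon regulatory factor used downstream of Toll-like receptors, was at 9.90 and 5.58 in the CAT libraries and at 35.0 and 27.7 in the Zac1 libraries. The groups were well apart on few counts, and the log2 fold change was 1.92 ± 0.58 (SE; limma adjusted p = 0.206). Tank, a scaffold of Tbk1, was at 320.3 and 182 in the CAT libraries and at 402 and 459.8 in the Zac1 libraries (0.83 ± 0.27, limma adjusted p = 0.288).

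In JAK-STAT signalling 0 of 13 tested genes passed, with 7 higher and 6 lower by sign. The phosphatase gene Ptpn6 was at 26.7 and 31.0 in the CAT libraries and at 65.1 and 49.4 in the Zac1 libraries (0.96 ± 0.39 SE in log2 fold change, limma adjusted p = 0.593), and the kinase gene Jak2 was at 61.1 and 73.2 and at 114 and 108 (0.72 ± 0.30, limma adjusted p = 0.639). In DNA sensing 0 of 12 passed (8 higher, 4 lower by sign), with log2 fold changes of 0.70 for Tmem173, which encodes STING, and 0.38 for the exonuclease gene Trex1. In RNA sensing 0 of 9 passed (3 higher, 6 lower), with -0.41 for the helicase gene Ddx3x and -0.36 for Pcbp2. Of 30 further interferon-induced genes 0 passed (13 higher, 17 lower), with -0.60 for Nmi and 1.75 for Samd9l, the latter on fewer than 20 counts per library. Of 13 other genes of the MHC class I pathway 0 passed (4 higher, 9 lower), with -0.35 for the peptidase gene Erap1 and -0.29 for the proteasome gene Psmb7.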

How the data were processed

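The deposited table holds 1 column per library, with 12866 lines. Its values are a normalised signal, in the form of TMM pseudocounts per the name of the deposited table. The submitters' processing notes name edgeR and the mm9 build. The mapping of tags is not given in the sources used here. Whole counts were recovered by inverting edgeR's quantile adjustment within each group, with 1 relative size per library and a dispersion of 0.0364 found from the values. They returned 100% of the deposited signal values within 0.001, and the inversion was tested on simulated data. Without that inversion, low values lay within 0.1 of whole multiples of 1 step for 98.6% and 100% in Zac1 replicates 9 and 12 but only 62.9% and 86.8% in CAT replicates 9 and 12, so the CAT counts, and the count tests, rest on the inversion. Totals cover listed genes only, of which the lowest had 10 counts over the 4 libraries. The 5 lines with no gene ID were left out (0% of the recovered counts of the CAT libraries, 0.00897% and 0.00438% of Zac1 replicates 9 and 12).

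Genes with a mean of at least 10 over the 4 libraries were tested with limma 3.58.1 in R 4.3.3 on log2(value + 1), with a variance trend and no replicate term, two-sided, with Benjamini-Hochberg adjustment and a threshold of 0.05. Fold changes on this scale understate those of low genes. Prior degrees of freedom were 14.1, so the spread of a gene counts less than that typical of its abundance. The replicates are separate transfections of 1 line, per the series' design text, and p-values measure the spread between them. Counts were also tested with edgeR 4.0.16 and DESeq2 1.42.0. The alternatives were another pseudocount, filter, scaling or variance model, a replicate block, and leaving out each library. The listed genes, the other pathway lists, the markers and the rule for naming genes (all listed genes, with full values for the 12 with the smallest p and the 3 with the highest mean in each role, and 2 genes of every other list) were chosen with earlier results of these data known.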

Additional observations from a re-analysis of the deposited data

Results flagged for a closer look

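The 5 lines of the table with no gene ID, which enter no comparison above, held a summed normalised signal of 1084 in Zac1 replicate 9 and 555 in Zac1 replicate 12 and 0 in both CAT libraries.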

How the results depend on the processing

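None of the 38 genes passed as higher or lower under any of the 14 alternatives, and the smallest adjusted p was 0.105, for Ifit2 without CAT replicate 12. Over all genes, 110 called higher became 67 with a mean of at least 50, 279 with a replicate block, and 1 to 154 with 1 library left out; 0 called lower became 0 to 5. The 38 genes' median, 0.0022 in log2 fold change, became -0.037 with a mean of at least 50 (8 genes then have no value), 0.061 with equal-total scaling and -0.090 to 0.016 with 1 library left out. Under equal-total scaling Tap1 turned to 0.0069 and B2m to 0.043. The numbers 9 and 12 were not treated as pairs, since no label ties them to a shared batch. Deviations of same-numbered libraries correlated at 0.20 over all genes tested, which does not settle whether the numbers mark one. That was not tested. With the replicate block, 1 other pathway gene, Tank, passed (adjusted p = 0.0375), and the adjusted p of Ifit1 was 0.281.

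With 1 library left out, 22 of the 38 log2 fold changes changed sign in at least 1 fit, where a lone library is assumed to vary like the other group. They ranged as follows, and the cause was not tested: -0.093 to 0.50 for Ifnar1, -0.028 to 0.50 for Stat2, -0.22 to 0.017 for Irf1, -0.30 to 0.0075 for Irf2, -0.21 to 0.32 for Irf7, -0.10 to 0.19 for Irf9, -0.79 to 0.83 for Ifih1, -0.16 to 0.21 for Dhx58, -0.16 to 0.024 for Adar, -0.12 to 0.30 for Isg15, -0.13 to 0.59 for Isg20, -0.066 to 1.88 for Ifit2, -0.68 to 0.18 for Mx2, -0.19 to 0.75 for Rsad2, -0.52 to 0.13 for Ifitm2, -0.063 to 0.64 for Parp9, -0.51 to 0.097 for Parp14, -0.16 to 0.47 for Psmb8, -0.12 to 0.55 for Psmb9, -0.40 to 0.29 for Tap1, -0.34 to 0.12 for Tapbp, -0.096 to 0.057 for B2m.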
